A study of Mus musculus with 8 samples.

Results

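The B cell lineage genes examined were Cd79a, Cd79b, Ms4a1, Cd37, Fcrla, Cd22, Blnk and Pax5, read in sorted splenic CD4 T cells of mice. Included were all probe sets whose array annotation gives one of these symbols as the only gene, which were 13 of the 22626 probe sets tested. Each probe set sums up several short probes for 1 transcript region. Fcrla had 3 probe sets, Ms4a1, Cd37 and Cd22 had 2 each, and Cd79a, Cd79b, Blnk and Pax5 had 1 each.

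The arrays came from female mice aged 8 to 12 weeks that were either wild type C57BL/6 (WT) or carried a knockout of the aryl hydrocarbon receptor gene Ahr, backcrossed to C57BL/6 (KO). The receptor is a ligand-activated transcription factor, and TCDD is its prototypical ligand. Mice of each genotype were injected intraperitoneally with TCDD at 10 µg/kg or with DMSO, both in corn oil, and were killed after 24 h, which gave 4 groups (DMSO or TCDD in KO, DMSO or TCDD in WT). Each group had 2 arrays, called biological duplicates in the series' design text, and the RNA on an array was a pool from 4 animals. The spread between arrays therefore does not show the spread between single mice. The knockout is present in every cell of the animal, not in T cells alone.

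The B cell antigen receptor is a surface immunoglobulin joined to the CD79A and CD79B chains, which carry the signal into the cell. The signal passes through the adaptor BLNK to phospholipase C gamma 2, is restrained by the inhibitory lectin CD22, and depends for its components on the transcription factor PAX5, which holds B cells in their lineage. CD20 (Ms4a1) and the tetraspanin CD37 are membrane proteins of mature B cells, and FCRLA is an intracellular protein related to Fc receptors. CD37 is also found on T cells and myeloid cells, and BLNK in some myeloid and dendritic cells, whereas Cd79a and Pax5 are among the markers most used to define B cells. A CD4 sort selects T cells, so these genes are expected at low levels in it. In bulk RNA, fewer cells of a type and less RNA per cell cannot be told apart.

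RefSeq promoter windows (GRCm38.p6) were held for 6 of the 8 genes, and those of the members the results turn on are shown because the genotypes differ in a DNA-binding receptor. The 250 bases before the start of transcription are printed 5′ to 3′ on the strand of the gene, for Cd37 (chr7:45238840-45239089, minus strand), Fcrla (chr1:170927584-170927833, minus strand), Blnk (chr19:40994222-40994471, minus strand) and Cd79a (chr7:24897247-24897496, plus strand). Capitals mark matches, on either strand, to the core letters GCGTG bound by the aryl hydrocarbon receptor, the octamer ATGCAAAT, the PU.1 type letters GAGGAAGT and the EBF type letters (TCCC and GGGA with any 2 bases between).
Cd37: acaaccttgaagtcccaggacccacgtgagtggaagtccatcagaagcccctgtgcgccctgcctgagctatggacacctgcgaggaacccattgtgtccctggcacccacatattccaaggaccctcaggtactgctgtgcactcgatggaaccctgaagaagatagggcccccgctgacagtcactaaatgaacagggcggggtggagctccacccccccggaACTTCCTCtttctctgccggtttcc
Fcrla: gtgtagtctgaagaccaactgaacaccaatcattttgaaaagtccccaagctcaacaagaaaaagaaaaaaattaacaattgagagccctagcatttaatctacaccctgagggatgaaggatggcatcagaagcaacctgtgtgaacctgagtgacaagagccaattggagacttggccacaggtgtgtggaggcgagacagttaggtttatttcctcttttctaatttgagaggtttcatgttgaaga
Blnk: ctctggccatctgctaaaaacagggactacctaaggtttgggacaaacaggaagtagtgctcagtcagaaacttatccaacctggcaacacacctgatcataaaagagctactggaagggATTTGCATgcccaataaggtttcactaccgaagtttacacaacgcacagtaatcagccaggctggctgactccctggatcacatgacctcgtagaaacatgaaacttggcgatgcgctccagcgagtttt
Cd79a: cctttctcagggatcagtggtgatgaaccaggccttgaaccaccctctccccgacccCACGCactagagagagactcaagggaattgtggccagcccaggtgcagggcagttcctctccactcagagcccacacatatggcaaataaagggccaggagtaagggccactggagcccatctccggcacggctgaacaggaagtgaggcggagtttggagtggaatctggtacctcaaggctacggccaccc
Cd37 held the PU.1 type letters, found in 2.44% of the 32851 RefSeq windows of this length. Blnk held the octamer, found in 1.6%. Cd79a held the receptor's core letters, as did Pax5, and so did 28.2% of all windows. Cd22 held the EBF type letters, found in 0.779%, and the Fcrla window held none of the 4. A match is a description of the letters in this window and not a binding site. Cd79b and Ms4a1 are named only.

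All values below are log2 expression levels that the authors had normalised with RMA, a method for multiple arrays, and a difference of 1 is a doubling. Levels are compared between arrays within a probe set and not between probe sets, whose probes differ in brightness. The mean of 8 of the 13 probe sets lay under the median of all probe sets (6.13), in the dim range of the array. Ahr itself did not check the genotype labels: its probe sets read 6.49 to 7.08 in KO and 6.11 to 6.29 in WT, and 6.35 to 6.86 and 6.31 to 6.64, and the position of these probes relative to the deleted part is not known here. The array labelled WT TCDD replicate 1 is described in 1 field as knockout, but its title, source and strain give the wild type, and it was kept as WT. The WT arrays numbered 2 stood apart on the first principal component (49.2 for DMSO and 40.4 for TCDD, against −36.2 to 9.10 for the other 6 arrays) and had the smallest difference between the 3′ and 5′ actin control probe sets, a measure of RNA integrity (2.90 and 3.30, against 3.48 to 4.56). The sorted cells carried the T cell markers that the gate selects, with Cd3e at 9.11 to 9.46 in KO and 9.46 to 9.64 in WT and the brighter Cd4 probe set at 8.06 to 8.26 and 8.11 to 8.73. The question for these genes was whether they differed between KO and WT, for which 4 KO arrays were compared with 4 WT arrays, and whether TCDD changed them.

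Between KO and WT, 2 of the 13 probe sets were called, both higher in KO, 1 each for Cd37 and Fcrla, at a Benjamini-Hochberg (BH) adjusted p under 0.05 over all tested probe sets in limma. Over the whole array 2.79% of probe sets were called, and 1.59% were called higher in KO. The median difference over the 13 was 0.17, against −0.005 over all tested probe sets. Other probe sets of Cd37 and Fcrla were not called, and neither were the genes most used to define B cells, Cd79a, Ms4a1 and Pax5. The balance of calls over the array had no settled direction. It was 360 higher and 271 lower as deposited, and 375 and 184 after centring each array on its median. More were lower than higher among the brighter probe sets alone (460 against 424) and among arrays numbered 2 alone (1367 against 354). The same held when KO DMSO replicate 1 (318 against 248) or WT TCDD replicate 1 (379 against 288) was omitted.

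**Figure D1:**
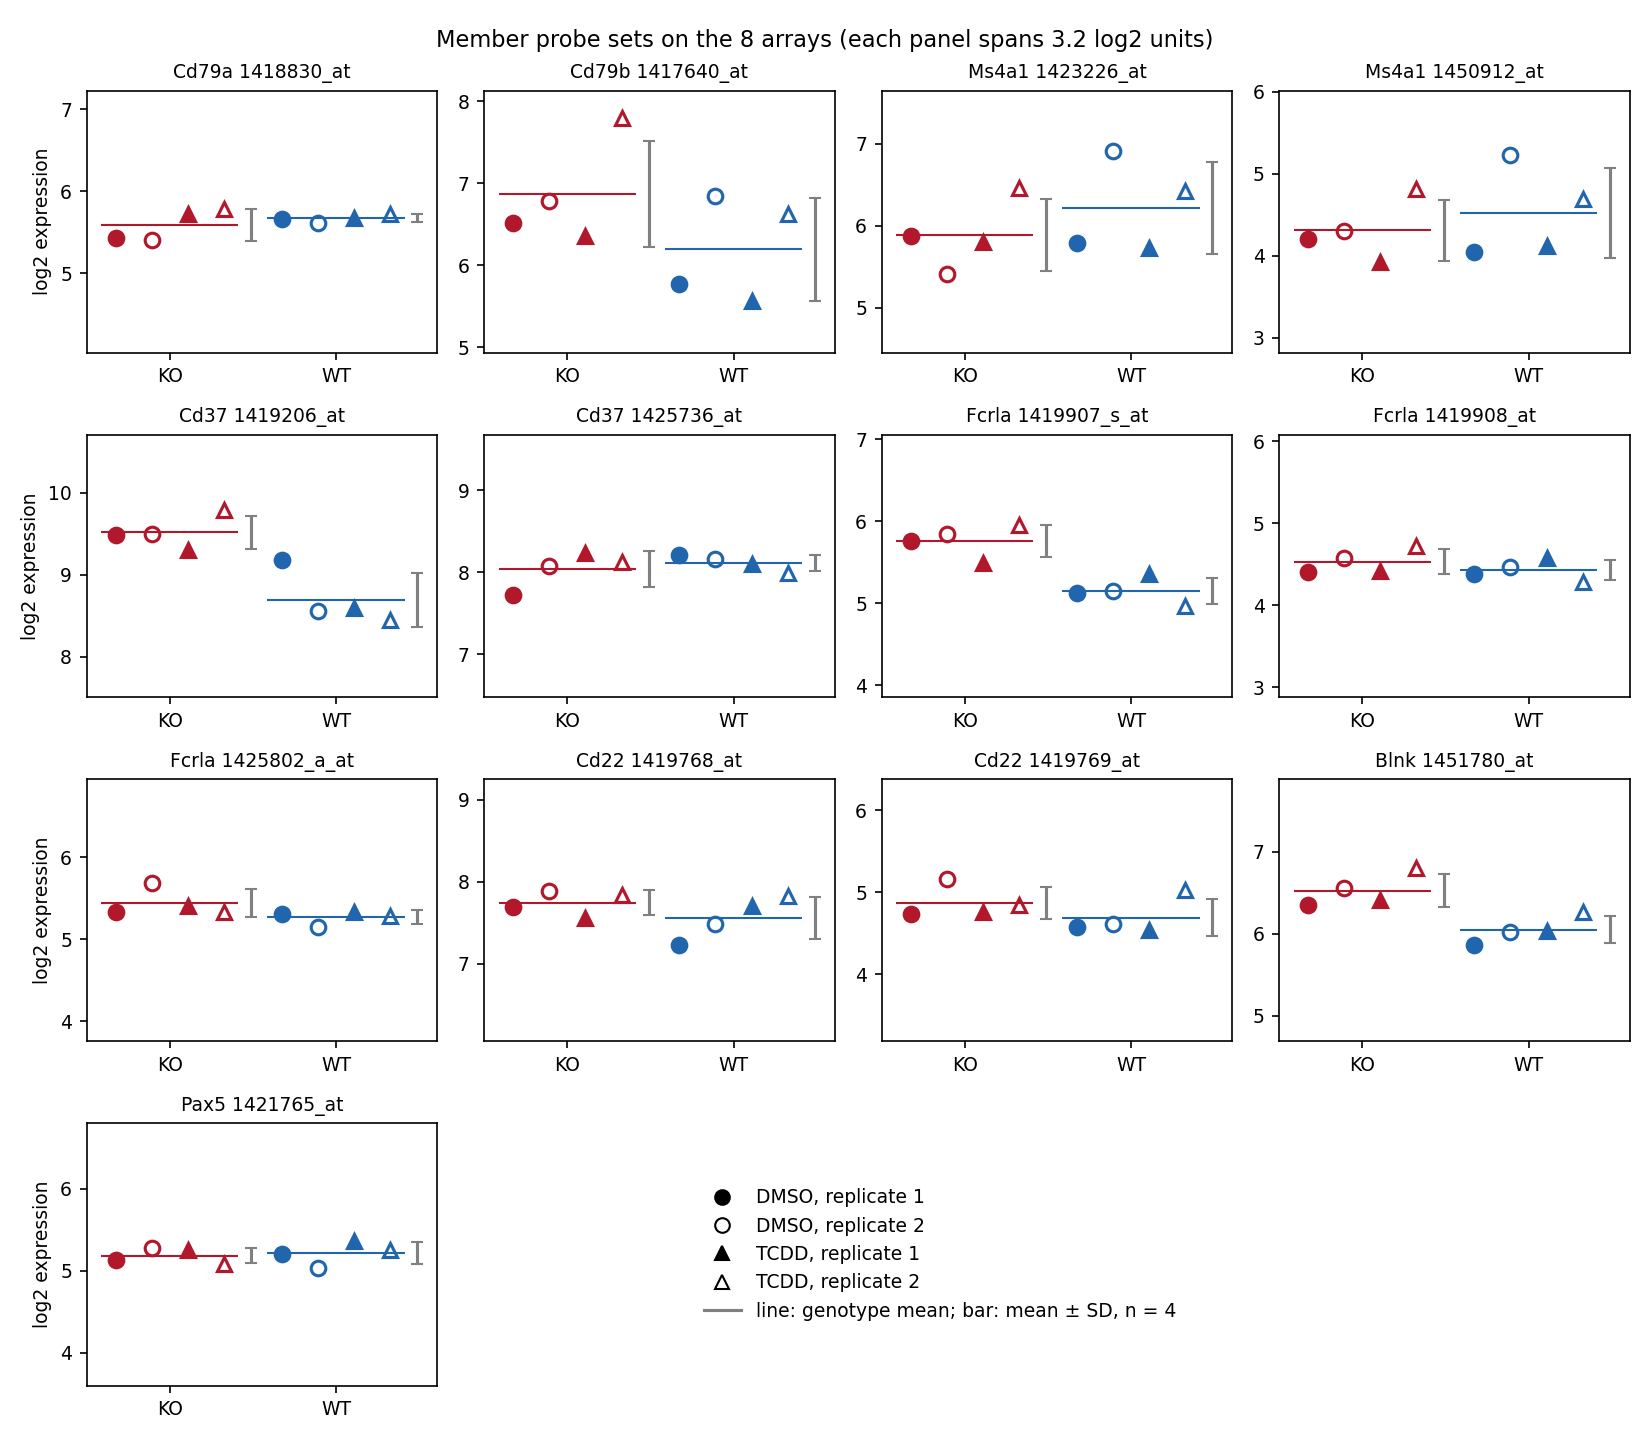
Log2 expression of the 13 member probe sets (vertical axis, each panel spanning 3.2 log2 units) on the KO (red) and WT (blue) arrays; circles are DMSO, triangles TCDD, filled symbols replicate 1 and open symbols replicate 2, lines are genotype means and grey bars the mean ± SD (n = 4). The KO arrays lie above all WT arrays for 1 Cd37 probe set, 1 Fcrla probe set and Blnk, while Cd79b and Ms4a1 spread widely within each genotype.

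The signalling chains of the receptor were not called and differed from each other in spread. Cd79a, whose product CD79A carries a tyrosine activation motif into the cell, read 5.43 and 5.41 in KO DMSO, 5.73 and 5.79 in KO TCDD, 5.67 and 5.61 in WT DMSO, and 5.68 and 5.73 in WT TCDD. All 8 values lay within a narrow band, and the KO arrays fell on either side of the WT arrays. The KO arrays averaged 5.59 ± 0.20 and the WT arrays 5.67 ± 0.05 (SD, n = 4 each), a difference of −0.08 (95% confidence interval −0.32 to 0.15; limma, BH adjusted p = 0.715).

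Cd79b, the partner chain, read 6.52 and 6.78 in KO DMSO, 6.36 and 7.80 in KO TCDD, 5.77 and 6.84 in WT DMSO, and 5.56 and 6.62 in WT TCDD. The genotypes overlapped, KO TCDD replicate 2 was the highest array, and in each of the 4 groups replicate 2 read above replicate 1, by 0.26 to 1.44. The KO arrays averaged 6.87 ± 0.65 and the WT arrays 6.20 ± 0.63 (SD, n = 4 each), a difference of 0.67 (SE 0.38; limma, BH adjusted p = 0.374). Its interval of −0.20 to 1.53 spans no change and a more than doubled level. CD79A and CD79B form a pair in the receptor. The centred values of their probe sets differed by a root mean square of 0.65 log2 units over the 8 arrays. From the probe sets of the other members Cd79b differed by 0.45 (Blnk) to 0.71 (Pax5), so the value is not particular to this pair.

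Among the membrane proteins, Cd37 gave the largest called difference of the 8 genes, in 1 of its 2 probe sets. The tetraspanin CD37 organises other proteins in the lymphocyte membrane. That probe set (1419206_at) read 9.49 and 9.50 in KO DMSO, 9.30 and 9.79 in KO TCDD, 9.18 and 8.56 in WT DMSO, and 8.59 and 8.45 in WT TCDD. Every KO array lay above every WT array, with WT DMSO replicate 1 close beneath the lowest KO array. The KO arrays averaged 9.52 ± 0.20 and the WT arrays 8.70 ± 0.33 (SD, n = 4 each), a rise of 0.83 (SE 0.17) or 1.77-fold (BH adjusted p = 0.0452 in limma). The exact permutation p, two-sided, was 0.0286, the smallest that 70 arrangements allow. Any probe set whose genotypes do not overlap takes this value, as Fcrla and Blnk do below, so it restates the lack of overlap. It is not adjusted for the number of probe sets tested. The other probe set (1425736_at) read 7.72 to 8.23 in KO and 7.99 to 8.21 in WT, with a difference of −0.07 (95% confidence interval −0.34 to 0.19; limma, BH adjusted p = 0.776), so the probe sets of this gene disagree.

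The Cd37 call was close to the threshold and ended when any array other than WT DMSO replicate 1 was left out. The limma BH adjusted p was 0.0706 and 0.0814 when KO DMSO replicate 1 or 2 was left out, 0.0921 and 0.131 for KO TCDD replicate 1 or 2, 0.117 for WT DMSO replicate 2, and 0.0655 and 0.109 for WT TCDD replicate 1 or 2. The difference itself stayed between 0.74 and 0.99 in the 8 fits that leave out 1 array. It was 0.63 among DMSO arrays and 1.03 among TCDD arrays, 0.51 among arrays numbered 1 and 1.14 among those numbered 2, and 0.64 without both WT arrays numbered 2 (limma, BH adjusted p = 0.230).

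Ms4a1, which encodes the B cell surface protein CD20, was not called in either probe set. Its brighter probe set (1423226_at) read 5.88 and 5.41 in KO DMSO, 5.80 and 6.46 in KO TCDD, 5.79 and 6.91 in WT DMSO, and 5.73 and 6.42 in WT TCDD. The highest arrays were both WT arrays numbered 2 and KO TCDD replicate 2, and the genotypes overlapped. The difference was −0.33 (95% confidence interval −1.01 to 0.36; limma, BH adjusted p = 0.606), and among arrays numbered 1 alone it was 0.08. The other probe set (1450912_at) read 3.92 to 4.82 in KO and 4.05 to 5.23 in WT, with its highest values on the same 3 arrays and a difference of −0.21 (−0.86 to 0.43; limma, BH adjusted p = 0.735).

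Cd22 encodes a sialic acid binding lectin that recruits phosphatases to the receptor, and neither of its probe sets was called. Its brighter probe set (1419768_at) read 7.69 and 7.89 in KO DMSO, 7.56 and 7.84 in KO TCDD, 7.23 and 7.49 in WT DMSO, and 7.70 and 7.82 in WT TCDD. The lowest values were those of WT DMSO, and the other 6 arrays overlapped. The difference between KO and WT was 0.18 (95% confidence interval −0.13 to 0.50, limma, BH adjusted p = 0.507). It was 0.43 among DMSO arrays and −0.06 among TCDD arrays. The other probe set (1419769_at) read 4.73 to 5.16 in KO and 4.54 to 5.03 in WT, with a difference of 0.18 (−0.13 to 0.50; limma, BH adjusted p = 0.517).

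Fcrla had 1 called probe set of 3. Its product lies inside the B cell, where it binds immunoglobulin. The called probe set (1419907_s_at) read 5.76 and 5.84 in KO DMSO, 5.49 and 5.95 in KO TCDD, 5.13 and 5.15 in WT DMSO, and 5.35 and 4.96 in WT TCDD. All KO arrays lay above all WT arrays, the nearest being KO TCDD replicate 1 and WT TCDD replicate 1. The KO arrays averaged 5.76 ± 0.20 and the WT arrays 5.15 ± 0.16 (SD, n = 4 each), a rise of 0.61 (SE 0.12) or 1.53-fold (BH adjusted p = 0.0404 in limma), with an exact permutation p of 0.0286. Both means lay under the median of all probe sets (6.13), in the dim range of the array. The _s_at ending is used by Affymetrix for probe sets whose probes match several transcripts. The other probe sets read 4.40 to 4.72 in KO and 4.28 to 4.57 in WT (1419908_at), and 5.33 to 5.69 and 5.15 to 5.33 (1425802_a_at). Their differences were 0.10 (95% confidence interval −0.12 to 0.33) and 0.17 (−0.05 to 0.39), with limma BH adjusted p of 0.617 and 0.382.

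The Fcrla call ended on leaving out any of 6 arrays. The limma BH adjusted p was 0.0647 and 0.0750 when KO DMSO replicate 1 or 2 was left out, 0.119 for KO TCDD replicate 2, 0.0739 and 0.101 for WT DMSO replicate 1 or 2, and 0.0995 for WT TCDD replicate 2. The difference stayed between 0.55 and 0.70 in the 8 fits that leave out 1 array. It was 0.66 among DMSO arrays, 0.57 among TCDD arrays, 0.38 among arrays numbered 1, 0.84 among those numbered 2, and 0.52 without both WT arrays numbered 2 (limma, BH adjusted p = 0.205).

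Inside the cell, the adaptor gene Blnk did not pass although its genotypes did not overlap. BLNK links the kinase SYK to phospholipase C gamma 2. It read 6.35 and 6.56 in KO DMSO, 6.41 and 6.80 in KO TCDD, 5.87 and 6.02 in WT DMSO, and 6.04 and 6.27 in WT TCDD. The lowest KO array lay just above the highest WT array, and replicate 2 read above replicate 1 in each of the 4 groups. The KO arrays averaged 6.53 ± 0.20 and the WT arrays 6.05 ± 0.17 (SD, n = 4 each), a difference of 0.48 (SE 0.12, 1.39-fold; limma, BH adjusted p = 0.0753), with an exact permutation p of 0.0286. It was 0.51 among DMSO arrays and 0.45 among TCDD arrays, and 0.42 and 0.54 among arrays numbered 1 and 2. With array weights the adjusted p was 0.0372 (limma, BH), but Blnk passed in only 2 of 21 alternative fits. It passed in 0 of the 8 fits that leave out 1 array (limma, BH adjusted p = 0.0729 to 0.174). Without both WT arrays numbered 2 the adjusted p was 0.173 (limma, BH).

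Pax5, the transcription factor of B cell commitment, read 5.13 and 5.28 in KO DMSO, 5.25 and 5.09 in KO TCDD, 5.21 and 5.04 in WT DMSO, and 5.36 and 5.25 in WT TCDD. The genotypes were interleaved over their whole range. The difference was −0.03 (95% confidence interval −0.23 to 0.18; limma, BH adjusted p = 0.902), which covers at most small changes of this probe set's signal.

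**Figure D2:**
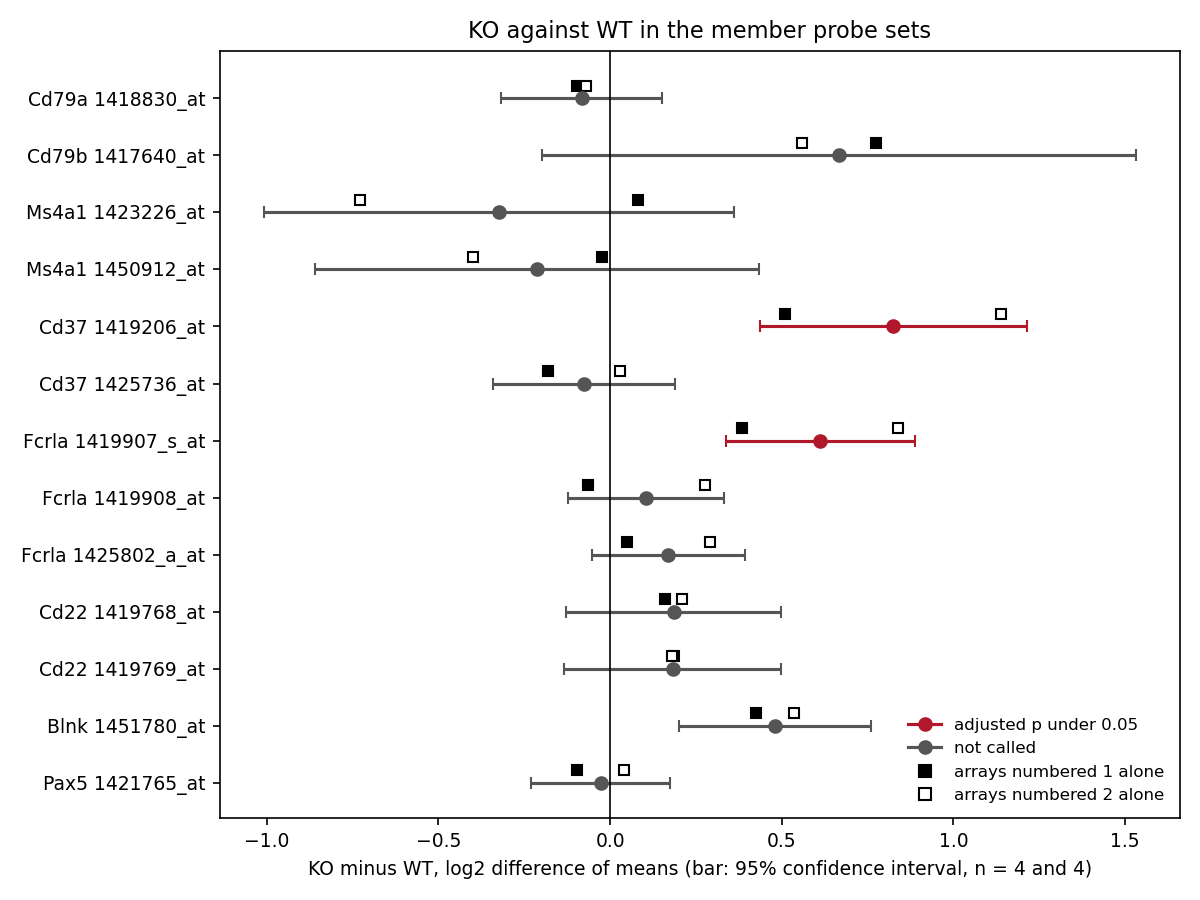
KO minus WT difference of mean log2 expression (horizontal axis) for each member probe set, with its 95% confidence interval from limma (n = 4 and 4), red where the adjusted p was under 0.05; filled and open squares give the difference among arrays numbered 1 and 2 alone. Both called probe sets had the larger difference among arrays numbered 2 (1.14 for Cd37 and 0.84 for Fcrla).

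In all, 3 of the 13 probe sets had every KO array above every WT array (Cd37, Fcrla and Blnk), against 5.67% of all tested probe sets, and 0 had every KO array below, against 6.67%. Taking the probe set of each gene that was brightest over all arrays, the mean level of the 8 genes was 6.49 to 6.94 in KO and 6.23 to 6.45 in WT. This choice takes the called Fcrla probe set, which is not the brightest of its gene in WT. With the probe set brightest in WT the ranges overlapped (6.48 to 6.86 in KO, 6.25 to 6.48 in WT), as they did with the mean of each gene's probe sets (6.06 to 6.47 and 5.87 to 6.11). Outside the 8 genes, the patterns nearest to Cd37 were those of Ehmt2, a histone methyltransferase (root mean square difference 0.08), Exosc10, an exosome ribonuclease (0.14), and Flna, an actin crosslinker (0.14). Nearest to Fcrla were Sh2d3c, an adaptor (0.09), Plcg2, phospholipase C gamma 2 (0.10), and Anxa2, an annexin (0.11), each over 8 arrays.

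TCDD changed none of these genes detectably in either genotype. In WT, limma called 0 of the 13 probe sets (0% of all tested). Against 631 of the 22626 probe sets tested, 1 of the 13 had an unadjusted p under 0.05 (limma). That was the brighter Cd22 probe set, at 7.23 and 7.49 with DMSO and 7.70 and 7.82 with TCDD, a difference of 0.40 (SE 0.16; limma, BH adjusted p = 0.997; 2 arrays a group). Both TCDD arrays lay above both DMSO arrays, which 2 arrays a group often show without any difference.

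In KO, limma again called 0 of the 13 (0% of all tested). Against 383 of the 22626 probe sets tested, 1 of the 13 had an unadjusted p under 0.05 (limma). It was Cd79a, at 5.43 and 5.41 with DMSO and 5.73 and 5.79 with TCDD, a difference of 0.34 (SE 0.10; 2 arrays a group), and its adjusted p rounded to 1 (limma, BH). The WT arrays of Cd79a, at 5.61 to 5.73, lay between these pairs or within the upper one. For the probe sets called between genotypes, the TCDD difference was −0.35 in WT and 0.05 in KO for Cd37 and 0.01 and −0.08 for Fcrla. For Blnk it was 0.21 and 0.15.

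The interval of the TCDD difference was wide for the variable genes, at −1.63 to 1.20 in WT and −0.99 to 1.85 in KO for Cd79b and −1.33 to 0.78 and −0.57 to 1.54 for the brighter Ms4a1 probe set. It was narrow for Cd79a in WT (−0.17 to 0.30) and for Pax5 (−0.12 to 0.48 in WT, −0.34 to 0.27 in KO). The median over the 13 probe sets was 0.02 in WT and 0.08 in KO, against 0.03 in each genotype over all tested probe sets. The difference of the TCDD responses between genotypes, tested as an interaction, was called for 0 of the 13 (0% of all tested). An unadjusted p under 0.05 (limma) was found for 0 of the 13, against 628 of the 22626 tested.

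Other genes of the B lineage were read from a list of 69 symbols, of which 49 had probe sets under that symbol, 101 in all. In KO against WT, 7 probe sets of 6 genes rose and 0 fell, and 94 were not called. Over all tested probe sets 1.59% were called higher in KO and 1.2% lower. The median difference of the list was 0.08, against −0.005 over all tested probe sets. Every KO array lay above every WT array in 21 of the 101, against 5.67% of all tested probe sets. Every KO array lay below in 2, against 6.67%. Taking the brightest probe set of each gene, the mean level of the list was 6.98 to 7.29 in KO and 6.73 to 6.85 in WT. Of 9 signalling genes 0 were called, and of 4 plasma cell genes 0. Among 15 signalling probe sets, Syk, the kinase that phosphorylates BLNK, read 0.87 higher in its brightest one (limma, BH adjusted p = 0.0926), and Plcg2 0.53 higher (0.0825).

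Of 13 transcription factor genes, 3 rose. They were Irf8, an interferon regulatory factor of B, myeloid and dendritic cells (2.97 and 0.96 in its 2 probe sets), Spib, an Ets factor of B and plasmacytoid dendritic cells (1.66), and Bcl11a, a zinc finger factor of the same lineages (1.57 in 1 probe set; the other, 0.19 higher, was not called). Spib read 7.13 and 7.57 in KO DMSO, 7.38 and 7.85 in KO TCDD, 5.80 and 5.63 in WT DMSO, and 5.79 and 6.08 in WT TCDD, so its genotypes lay far apart. The limma BH adjusted p was 0.00467 for Spib, 0.0142 for the called Bcl11a probe set, and 0.00787 and 0.0191 for Irf8. The Irf8 probe set with the smaller difference was lost without KO TCDD replicate 1, KO TCDD replicate 2 or WT DMSO replicate 2 (limma, BH adjusted p = 0.0584, 0.0663 and 0.0509). Without both WT arrays numbered 2, it and Bcl11a were not called (limma, BH adjusted p = 0.117 for each). Spib and the other Irf8 probe set were still called in that fit (0.0456 and 0.0423). Ebf1, which acts with Pax5 in early B cells and was chosen with its values in view, differed by −0.14 to −0.05 in its 3 probe sets. Of the 25 probe sets of the 13 genes, 16 had the higher mean in KO, against 10963 of the 22626 tested. Their median difference was 0.11.

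Of 14 surface genes, 2 rose, Ly6d, a marker of B and plasmacytoid lineage precursors (1.59; limma, BH adjusted p = 0.00788), and Cxcr5, the follicle homing receptor of B cells and follicular helper T cells (0.63; 0.0332). Cxcr5 passed in 2 of the 8 fits that leave out 1 array, those that lack KO DMSO replicate 2 or WT TCDD replicate 1. Without each of the other 6 its adjusted p was 0.0535 to 0.103. Without both WT arrays numbered 2, neither Ly6d nor Cxcr5 was called (limma, BH adjusted p = 0.0745 and 0.134).

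Of 9 immunoglobulin genes, 1 rose: Ighm, the heavy chain of IgM, in 1 of 11 probe sets (10.80 and 11.02 in KO DMSO, 10.23 and 10.93 in KO TCDD, 9.66 and 10.00 in WT DMSO, 9.38 and 9.18 in WT TCDD). Its difference was 1.19 (limma, BH adjusted p = 0.0347), and every KO array lay above every WT array. On leaving out 1 array the call held for KO TCDD replicate 1 and WT DMSO replicate 2, and the adjusted p was 0.0520 to 0.109 without each of the other 6 arrays. A brighter Ighm probe set (1427351_s_at) read 12.01 to 12.69 in KO and 11.22 to 11.93 in WT, again without overlap. Its difference of 0.78 was not called (limma, BH adjusted p = 0.0582). Others were lower in KO, such as 1425385_a_at (−0.16). Averaged over its 11 probe sets, some of them dim, Ighm differed by 0.19 (limma, BH adjusted p = 0.367).

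**Figure D3:**
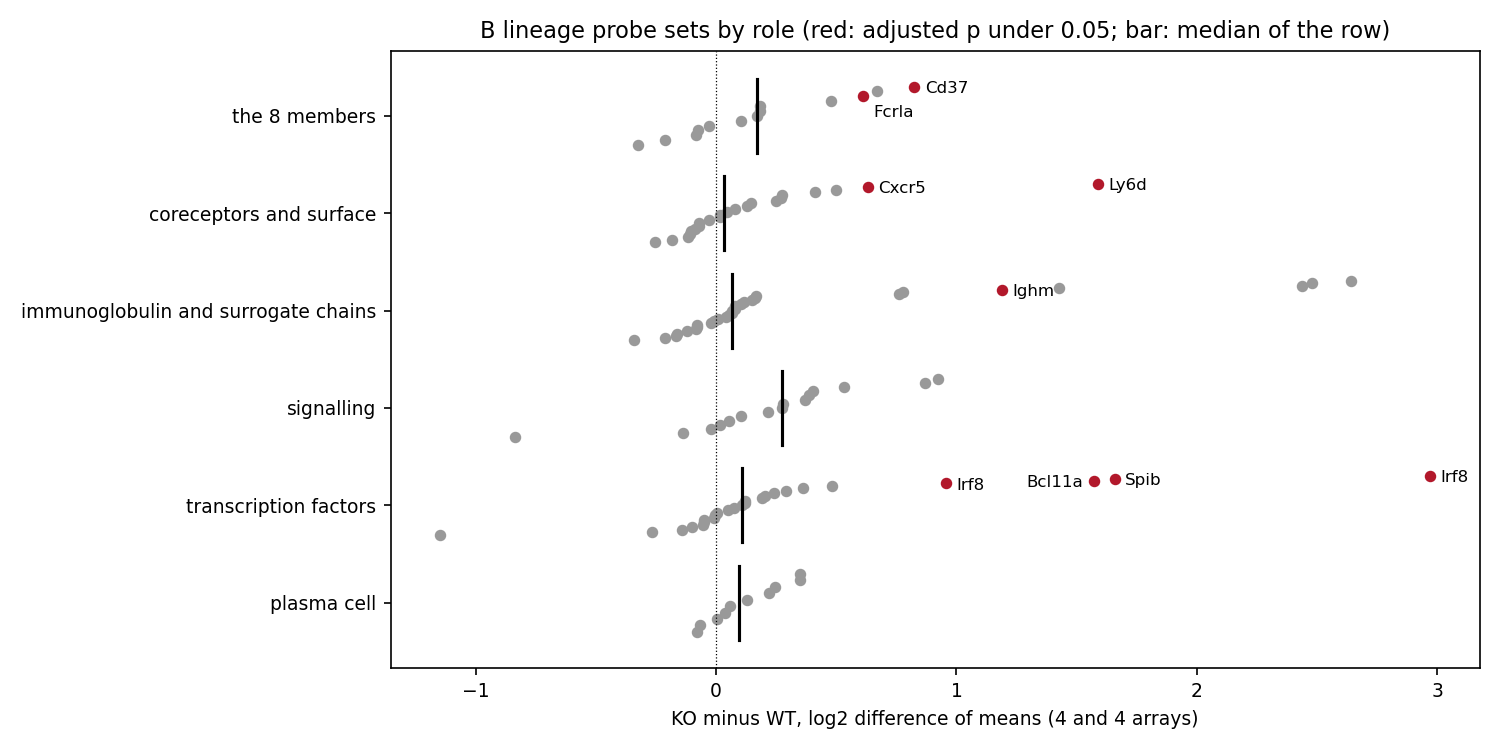
KO minus WT difference of mean log2 expression (horizontal axis, 4 and 4 arrays) for each probe set of the 8 genes and of the other B lineage lists, 1 row a role; red points had an adjusted p under 0.05 and are named, and black bars are row medians. The called points lie to the right, from 0.61 for Fcrla to 2.97 for Irf8, while the row medians lie between 0.03 and 0.28.

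Markers of other cell types moved in the same comparison. The counts below are of genes with any called probe set, a unit unlike the share of probe sets. Of all tested probe sets, 1.59% were called higher in KO and 1.2% lower. By probe set, 13 of 21 plasmacytoid, 8 of 20 macrophage and 9 of 12 class II ones were called higher. The counts were 1 of 10 for conventional dendritic cells, 2 of 13 for NK and CD8 T cells, 1 of 19 for T cell identity and 1 of 7 erythroid. Of 10 measured plasmacytoid dendritic cell markers, 7 rose, 0 fell and 3 were not called. Klk1 (3.02 and 2.95 in 2 of its probe sets) and Irf8 led, and the mean level of the list was 8.19 to 8.62 in KO and 6.69 to 7.22 in WT. Irf8, Spib and Ly6d stand in both this list and the B lineage list. Of 14 macrophage and monocyte markers, 7 rose and 0 fell, led by Tyrobp, Mpeg1 and Cd68 (2.49, 2.27 and 1.87), with mean levels of 7.65 to 8.20 in KO and 6.81 to 7.21 in WT. Of 8 class II presentation genes, which B cells, macrophages and dendritic cells share, 6 rose, led by Cd74, H2-Ab1 and H2-DMa (2.76, 2.11 and 1.87), with mean levels of 8.84 to 9.67 and 7.38 to 7.92. The Cd74 call was lost without WT DMSO replicate 2 or WT TCDD replicate 2 (adjusted p = 0.0601 and 0.0631). Without both of these arrays, Klk1, Tyrobp, Mpeg1, Cd74, H2-Ab1 and H2-DMa were not called (limma, BH adjusted p = 0.0589 to 0.137). Cd68 and the Irf8 probe set with the larger difference were still called in that fit (0.0457 and 0.0423). The part of these markers in the Cd37 and Fcrla results was not tested.

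Of 8 conventional dendritic cell markers, Flt3 rose (0.88), with mean levels of 6.78 to 7.09 in KO and 6.31 to 6.71 in WT. Among 10 markers of NK and CD8 T cells, Nkg7 and Ccl5 rose (1.38 and 1.22), with mean levels of 6.96 to 7.44 and 6.76 to 6.97. On leaving out KO TCDD replicate 1 or 2, WT DMSO replicate 2 or WT TCDD replicate 2, none of Flt3, Nkg7 and Ccl5 was called (adjusted p = 0.0528 to 0.0972), and without KO DMSO replicate 2 Flt3 and Ccl5 were lost (0.0556 and 0.0606). Of 13 T cell and CD4 identity genes, Cd6 rose (0.81; adjusted p = 0.0445, and 0.0561 to 0.130 without any array other than WT DMSO replicate 1), and the mean level was 9.41 to 9.61 in KO and 9.25 to 9.67 in WT. Of 5 erythroid genes, 1 probe set of Hbb-b2 rose (0.70), with mean levels of 6.00 to 6.23 and 5.80 to 6.11. The adjusted p values are limma's, with BH adjustment over all tested probe sets.

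**Figure D4:**
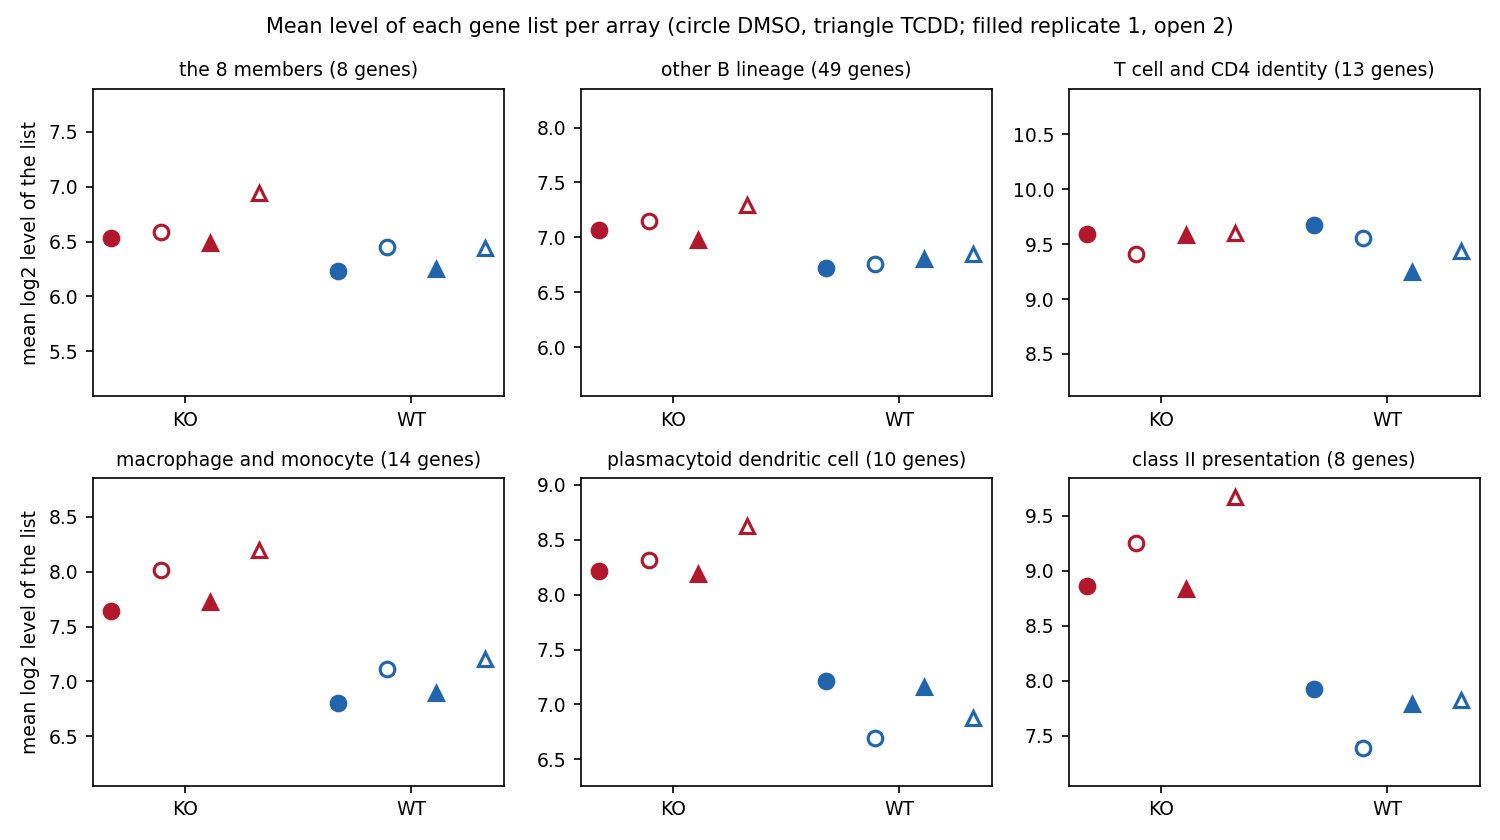
Mean log2 level (vertical axis, each panel spanning 2.8 log2 units) of 6 gene lists on each array, taking the brightest probe set of each gene; KO is red, WT blue, circles DMSO, triangles TCDD, filled symbols replicate 1 and open symbols replicate 2. The lists for plasmacytoid dendritic cells, macrophages and class II presentation separate the genotypes widely, and the T cell list overlaps. The other B lineage list lies at 6.98 to 7.29 in KO and 6.73 to 6.85 in WT, without overlap. The 8 B cell genes lie at 6.49 to 6.94 in KO and 6.23 to 6.45 in WT with this choice of probe sets, and overlap with the probe sets brightest in WT.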

How the data were processed

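Expression was measured on 8 Affymetrix mouse arrays, 2 in each of 4 groups taken from the sample titles. The deposited log2 values are the authors', made with RMA (affy), as the submitters' processing notes list; versions are not given in the sources used here. Of 22690 probe sets, 64 controls were left out and 22626 tested, of which 20380 had 1 gene symbol in the array annotation, 691 several and 1555 none. KO was compared with WT over 4 and 4 arrays, as the series' design text pools treatments, and TCDD with DMSO in a model of 4 group means, with limma 3.58.1 (R 4.3.3, lmFit and eBayes) and BH adjustment over all tested probe sets. Called means an adjusted p under 0.05. A single probe set's levels were also compared over all 70 arrangements of the arrays (exact permutation test, two-sided). The fits were tested on simulated data, and repeated with other normalizations, filters, models and subsets of arrays. No arrays were duplicates (at most 2.85% of values identical in any pair). The number of arrays limits the precision, and p-values measure the spread between pools. Named from the other lists were called probe sets, or the 3 largest in each direction where a list had over 6, and Cd3e, Cd4 and Ighm; Syk, Plcg2, Ebf1 and the genes of the closing section were chosen with their values in view. Patterns were compared by root mean square difference of values centred per probe set. The 8 genes, the lists and the tests were chosen with earlier results of these data known.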

Additional observations from a re-analysis of the deposited data

Results flagged for a closer look

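Among the 66 sets of 4 arrays examined (KO or WT, for each member probe set and each named probe set of the other lists), 3 held an array whose gap to its nearest neighbour was above Dixon's 95% critical value as a share of the whole range. Chance alone gives about 1 in 20. The dimmer Cd22 probe set read 5.03 on WT TCDD replicate 2, against 4.54 to 4.61 on the other WT arrays. H2-Ab1, a class II chain, read 7.80 on WT DMSO replicate 2, against 8.70 to 8.76, and H2-DMa, which loads peptides on class II molecules, read 6.88 on the same array, against 7.15 to 7.19.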

How the results depend on the processing

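Of the 13 member probe sets, 2 were called as reported and with quantile normalization or median centring (Cd37 and Fcrla each time). The same 2 were called from arrays numbered 2 only, a setting chosen after seeing the data. With array weights 2 were called (Fcrla and Blnk). With dim probe sets left out 1 was called (Cd37). The called Fcrla probe set lies under the array median, so that filter removed it and it was not tested there. With eBayes trend and robust settings 1 was called (Fcrla). In the model of 4 group means, without both WT arrays numbered 2, or with the mean of a gene's probe sets, 0 were called. From DMSO, TCDD or number 1 arrays only, 0 were called, and 0 to 1 on leaving out 1 array. For the other B lineage list (7 as reported) these counts were 11 with dim probe sets left out, 13 with array weights, 4 with 4 group means, 2 without both WT arrays numbered 2, 0 from DMSO, TCDD or number 1 arrays only, 12 from number 2 arrays, and 4 to 9 on leaving out 1 array. Over the array (631 as reported) they were 161 with 4 group means, 985 with quantile normalization, 1604 with array weights, 28 without both WT arrays numbered 2, 0 from DMSO, TCDD or number 1 arrays only (unadjusted p under 0.05 in 1545, 2832 and 3000; limma), 1721 from number 2 arrays, and 109 to 667 on leaving out 1 array. Fewer arrays enter the subset fits; otherwise the cause was not tested.

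Shared replicate numbers were not taken to pair the arrays, since the correlation of deviations was not above 0.1 for every pair of groups: it was 0.63 between the WT groups, 0.12 to 0.22 for 3 other pairs, and −0.29 and −0.19 for KO DMSO with the WT groups. With the replicate number as a block, 801 probe sets were called over the array, 2 member probe sets (Fcrla and Blnk, not Cd37; limma, BH adjusted p = 0.0469, 0.0447 and 0.0513) and 11 of the other list. The TCDD and interaction counts were 0 in all fits run.

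Differences that changed sign were uncalled before and after. With array weights they were 0.000626 for Cd79a and 0.00274 and 0.0134 for Ms4a1; without both WT arrays numbered 2, 0.13 and 0.23 for Ms4a1; from TCDD arrays, 0.055 for Cd79a, 0.055 for Ms4a1, 0.14 for Cd37 (1425736_at) and −0.06 for Cd22; from DMSO arrays, 0.08 for Pax5. From number 1 arrays they were 0.08 for Ms4a1 and −0.065 for Fcrla (1419908_at). From number 2 arrays they were 0.03 for Cd37 (1425736_at) and 0.04 for Pax5. The mean of the Cd37 probe sets differed by 0.38, opposite in sign to 1425736_at alone, but that mean includes the called Cd37 probe set. On leaving out 1 array, the dimmer Ms4a1 probe set ranged from −0.38 to 0.0233, Cd37 (1425736_at) from −0.14 to 0.0317 and Pax5 from −0.0858 to 0.0208.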

Other observations

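Igha and Jchain, which antibody-secreting cells use, had the largest uncalled differences between KO and WT among the other B lineage genes. The 3 probe sets of Igha, the heavy chain of IgA, read 2.44 to 2.64 higher in KO, and in each of them every KO array lay above every WT array (limma, BH adjusted p = 0.0642 to 0.0778). The first of them (1421653_a_at) read 10.86 and 12.82 in KO DMSO, 11.52 and 13.20 in KO TCDD, 8.16 and 9.65 in WT DMSO, and 9.92 and 10.76 in WT TCDD. In each group replicate 2 was the higher array, and the SD within a genotype was above 1 log2 unit. Jchain, which joins the units of IgA and IgM, read 8.50 to 10.43 in KO and 6.63 to 9.02 in WT, a difference of 1.43 (SE 0.56; limma, BH adjusted p = 0.192). The plasma cell genes Sdc1, Xbp1, Prdm1 and Tnfrsf17 had no called probe set of 10, with a median difference of 0.10. These genes were chosen with their values in view.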
